A study of Mus musculus with 8 samples.

Results

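The B cell and plasma cell genes are a list of 31 genes of B lymphocytes and of the antibody-secreting plasma cells that arise from them. They were chosen by name: a probe set belonged to the list where the array annotation gave it one of the 31 symbols, and where a gene had several probe sets the one with the brightest mean was used. In this way 30 of the 31 genes were found on 38 probe sets, out of 27201 genes and 43681 probe sets in all. The missing member was Ighm, the heavy chain of IgM. Its older symbol, Igh-6, is described with the immunoglobulins. Several probe sets were present for 6 members, and in 5 of these all of them had differences of the same sign.

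Whole lungs of BALB/c mice that carry an IL-1b transgene were profiled on 8 arrays. In 5 of them the mice had received doxycycline (dox), which induces IL-1b, an alarm cytokine of innate immunity, and in 3 they had received water. All mice of both groups carried the transgene, which the series' title calls lung-specific. The promoter that drives it is not given in the labels, and no dox-treated mice lacking it were analysed here, so dox and IL-1b cannot be told apart. Treatment lasted 7 days, and the age of the mice was some 12 weeks per the labels but 5 weeks per the header of a deposited annotation table. The labels do not say that the arrays come from separate animals, so the p-values cover the spread among these samples, which may be technical.

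B cells sense antigen through a membrane immunoglobulin that is coupled to the Cd79a and Cd79b signalling chains, and kinases and adaptors inside the cell carry the signal on. Pax5, Ebf1 and their partners keep the B cell identity, whereas Irf4 and Prdm1 promote the switch to the plasma cell, which secretes antibody in bulk. In mucosal organs plasma cells make polymeric IgA with the joining chain Igj (now named Jchain), and the epithelial receptor Pigr carries this IgA to the surface. Inflamed lungs can also form lymphoid aggregates, which the chemokine Cxcl13, the survival factor BAFF and lymphotoxins help to organise.

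Promoter sequences of 6 members are shown because they include the 4 members with the largest positive differences (Cd72, Igj, Blnk and Btla) and the holders of the octamer and EBF1 motifs. They are RefSeq windows of the reference genome, build GRCm38.p6, from 250 bases before to 50 bases after the annotated start, 5′ to 3′ on the strand of the gene. Capitals mark the motif. The 6 windows lie at chr19:40994172-40994471, minus strand (Blnk), chr10:75948050-75948349, plus strand (Vpreb3), chr7:30878979-30879278, minus strand (Cd22), chr4:43454577-43454876, minus strand (Cd72), chr16:45224087-45224386, plus strand (Btla), and chr5:88527848-88528147, minus strand (Igj).
Blnk: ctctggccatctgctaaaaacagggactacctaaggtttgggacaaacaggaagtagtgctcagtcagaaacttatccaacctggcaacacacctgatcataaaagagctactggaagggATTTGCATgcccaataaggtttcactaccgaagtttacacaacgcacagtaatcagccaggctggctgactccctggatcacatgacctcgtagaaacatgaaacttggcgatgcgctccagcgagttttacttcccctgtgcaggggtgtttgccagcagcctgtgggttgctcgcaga
Vpreb3: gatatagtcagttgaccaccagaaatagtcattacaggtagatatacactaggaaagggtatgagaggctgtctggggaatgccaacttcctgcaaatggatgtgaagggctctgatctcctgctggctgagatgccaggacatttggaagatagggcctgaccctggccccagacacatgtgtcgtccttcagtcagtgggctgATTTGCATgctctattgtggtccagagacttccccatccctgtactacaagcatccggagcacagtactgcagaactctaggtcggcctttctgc
Cd22: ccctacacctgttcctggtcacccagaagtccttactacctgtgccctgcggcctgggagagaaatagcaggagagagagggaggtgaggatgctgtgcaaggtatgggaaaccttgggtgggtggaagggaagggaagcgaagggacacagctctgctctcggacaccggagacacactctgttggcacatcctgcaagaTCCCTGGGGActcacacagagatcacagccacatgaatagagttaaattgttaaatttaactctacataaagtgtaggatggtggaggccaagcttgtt
Cd72: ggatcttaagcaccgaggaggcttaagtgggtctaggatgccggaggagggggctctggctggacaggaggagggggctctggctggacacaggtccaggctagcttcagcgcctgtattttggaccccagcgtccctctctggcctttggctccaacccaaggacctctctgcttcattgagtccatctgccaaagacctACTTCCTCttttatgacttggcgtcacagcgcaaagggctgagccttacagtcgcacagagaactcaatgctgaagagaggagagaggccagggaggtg
Btla: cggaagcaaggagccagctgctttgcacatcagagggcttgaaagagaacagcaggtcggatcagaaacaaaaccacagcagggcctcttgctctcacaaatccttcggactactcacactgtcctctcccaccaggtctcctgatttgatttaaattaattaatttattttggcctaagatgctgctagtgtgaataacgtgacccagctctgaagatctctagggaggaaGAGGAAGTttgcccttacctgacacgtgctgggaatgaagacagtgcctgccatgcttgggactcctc
Igj: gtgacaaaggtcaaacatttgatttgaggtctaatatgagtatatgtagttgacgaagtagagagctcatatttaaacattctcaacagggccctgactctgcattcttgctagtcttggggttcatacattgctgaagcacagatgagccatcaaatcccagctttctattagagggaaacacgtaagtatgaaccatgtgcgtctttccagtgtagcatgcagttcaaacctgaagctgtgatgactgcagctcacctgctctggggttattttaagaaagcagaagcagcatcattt

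A window was in the reference table for 25 of the 30 members. The octamer ATTTGCAT, which Oct proteins with the co-activator Pou2af1 bind, was searched on both strands (as ATTTGCAT or ATGCAAAT) and stood in 2 of the 25, against 1.97% of all 27025 genes with a window. In Blnk it began 130 bases before the start, and in Vpreb3 45 bases before it. The EBF1 palindrome, TCCC and GGGA with any 2 bases between them, stood in 1 of the 25, Cd22, 49 bases before the start, against 1.06% of all genes. The Ets motif GAGGAAGT (or ACTTCCTC on the other strand), bound by PU.1 and Spi-B, stood in 4 of the 25, against 3.69% of all genes. These were Cd72, Cd37, Btla and Fcrl1, between 49 and 15 bases before the start. The Igj window held none of the 3 motifs in these letters, and each of the 7 matches lay in a different gene.

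The arrays were closely alike: medians of intensity ran from 40.8 to 41.9, and arrays correlated over probe sets with r from 0.994 to 0.997 within a group and from 0.990 to 0.995 between groups. Defining lung genes were bright on every array, with the surfactant protein gene Sftpc at 25427 to 25868 on dox arrays and 25663 to 26107 on water arrays. The mouse Il1b gene rose in dox, with values of 671, 849, 670, 492 and 736 on dox arrays against 293, 191 and 210 on water arrays (log2 difference 1.57 ± 0.18 SE, adjusted p = 0.000525, limma). The species of the transgene is not in the labels, so this probe set may not measure it. In all, 946 of 27201 genes passed an adjusted p of 0.05 as higher in dox (3.48%) and 413 as lower (1.52%). Of the 12 macrophage markers listed, 10 rose (median log2 difference of the list 0.94), the most for the endotoxin receptor Cd14 (2.40). Of 8 neutrophil markers 6 rose (median 1.30), the most for the surface protein Cd177 (3.96), with 4 to 8 as single arrays were left out. These genes passed the same test, but Cd14 and Cd177 differed by more than any member. Their calls therefore do not show how small a change of B cell genes could pass. For most of the B cell genes water 1 stood above the other water arrays. It was singled out from these same values, and leaving out a high water array raises the difference of dox minus water. The difference without water 1 is given for each member where that changes the sign or call or moves the value by more than 1.5 times.

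Of the 30 B cell and plasma cell genes, 0 passed as higher and 0 as lower (limma, Benjamini-Hochberg over all genes), against the 3.48% and 1.52% of all genes. At an unadjusted p of 0.05, 8 members were under the threshold, against 18.7% of all genes. They were Cd72, Btla, Blnk, Irf4 and Igj, with positive differences, and Cd38, Ebf1 and Lta, with negative ones. In total 8 members had a positive and 22 a negative difference of dox minus water, with a median of -0.11 on the log2 scale, against -0.025 over all genes. Each dox array was above each water array in 2 members, Igj and Irf4, against 7.25% of all genes, and below each water array in 0, against 6.96%. Differences ran from -0.68 for Ms4a1 to 0.76 for Cd72.

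**Figure D1:**
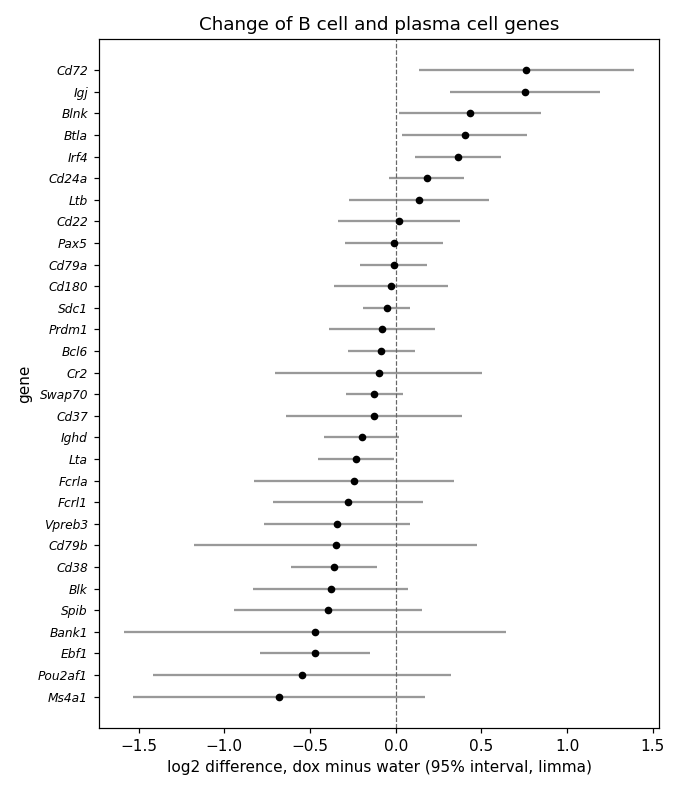
Log2 difference of intensity, dox minus water (x axis, log2 units), for each of the 30 measured members (y axis, ordered by the difference). Points are the limma estimates from 5 dox and 3 water arrays and lines their 95% intervals, which reach from -1.58 to 0.64 for Bank1 and from 0.32 to 1.19 for Igj.

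The members varied more from array to array than most genes. The median SD within groups was 0.299 on the log2 scale for members and 0.120 for all genes, and 9 of 30 members had an SD above 0.4, against 0.868% of all genes. The highest of the 8 arrays was water 1 for 20 members, against 20.1% of all genes, and water 1 was above both other water arrays for 25 members, against 37.4% of all genes. The lowest array was water 3 for 12 members and dox 5 for 7, against 13.1% and 13.6% of all genes. Relative to its own mean over the 8 arrays, the median member stood 0.11 lower on the log2 scale on dox 5 and 0.12 higher on dox 3, while it stood 0.32 higher on water 1 and 0.25 lower on water 3. All genes together had medians within 0.02 of zero on every array.

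**Figure D2:**
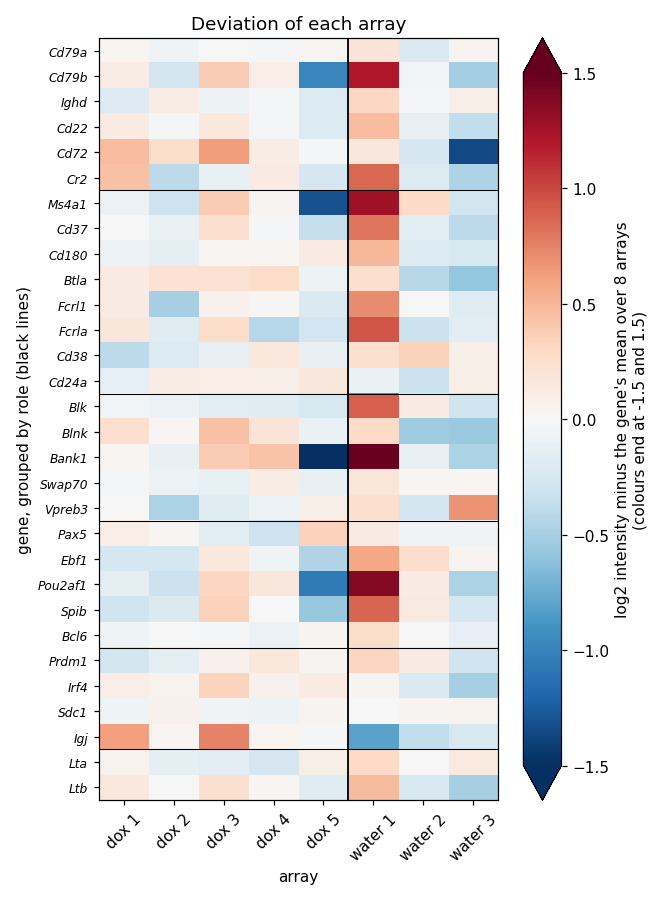
Log2 intensity of each member (rows, grouped by role) minus that gene's mean over the 8 arrays, with dox arrays left of the black line and water arrays right of it. The column of water 1 is mostly red, for 20 members the highest array, and dark blue marks dox 5 in Cd79b, Ms4a1, Bank1 and Pou2af1 and water 3 in Cd72.

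Members of the B cell receptor complex and its co-receptors were measured for 6 genes, of which 5 were highest on water 1. Cd79b, a signalling chain of the receptor, had intensities of 268, 206, 324, 266 and 127 on dox arrays against 571, 242 and 175 on water arrays. The water values alone spanned 3.26-fold, and every dox value but that of dox 5 lay inside their range. Between groups, Cd79b differed by -0.35 ± 0.37 (log2, SE, adjusted p = 0.678), and by 0.14 without water 1. Cd79a, the partner chain, was dim, at 26.3 to 28.1 on dox arrays and 23.6 to 31.5 on water arrays (log2 difference -0.01 ± 0.09, and 0.08 without water 1). Ighd, the heavy chain of IgD on mature naive B cells, had 155 to 194 on dox arrays and 176, 222 and 191 on water arrays, overlapping groups with a log2 difference of -0.20 ± 0.10, and of -0.11 without water 1.

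Cd72, an inhibitory co-receptor of the B cell, had the highest positive difference of the list. Its intensities were 108, 94.0, 120, 84.3 and 76.4 on dox arrays against 88.3, 65.5 and 30.7 on water arrays. The groups overlapped through water 1, and water 3 was the lowest array. The log2 difference was 0.76 ± 0.28 (SE, adjusted p = 0.173) with all arrays, 0.33 without water 3 and 1.09 without water 1, where it still did not pass (adjusted p = 0.0599). Cd22, another inhibitory co-receptor, had 122 to 156 on dox arrays and 108 to 193 on water arrays, with a log2 difference of 0.02 ± 0.16, and of 0.26 without water 1. Cr2, the complement receptor that lowers the threshold for activation, was dim and highest on water 1 (18.7 to 33.2 on dox arrays and 17.8 to 44.3 on water arrays, log2 difference -0.10 ± 0.27, and 0.30 without water 1).

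Of the 8 other surface proteins, 5 were highest on water 1. Ms4a1, which encodes CD20 of mature B cells, had intensities of 288, 248, 397, 315 and 124 on dox arrays against 740, 373 and 253 on water arrays. Water 1 was the highest array and dox 5 the lowest, 5.96-fold apart, and the groups overlapped. The log2 difference of -0.68 ± 0.38 (SE, 95% interval -1.53 to 0.17, adjusted p = 0.385) was the most negative of the list. It was -0.26 without water 1, -1.03 without water 3 and -0.42 without dox 5, and a second Ms4a1 probe set gave -0.72. Because whole lung was measured, a change in the number of B cells and a change in RNA per B cell cannot be told apart in any of these values.

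**Figure D3:**
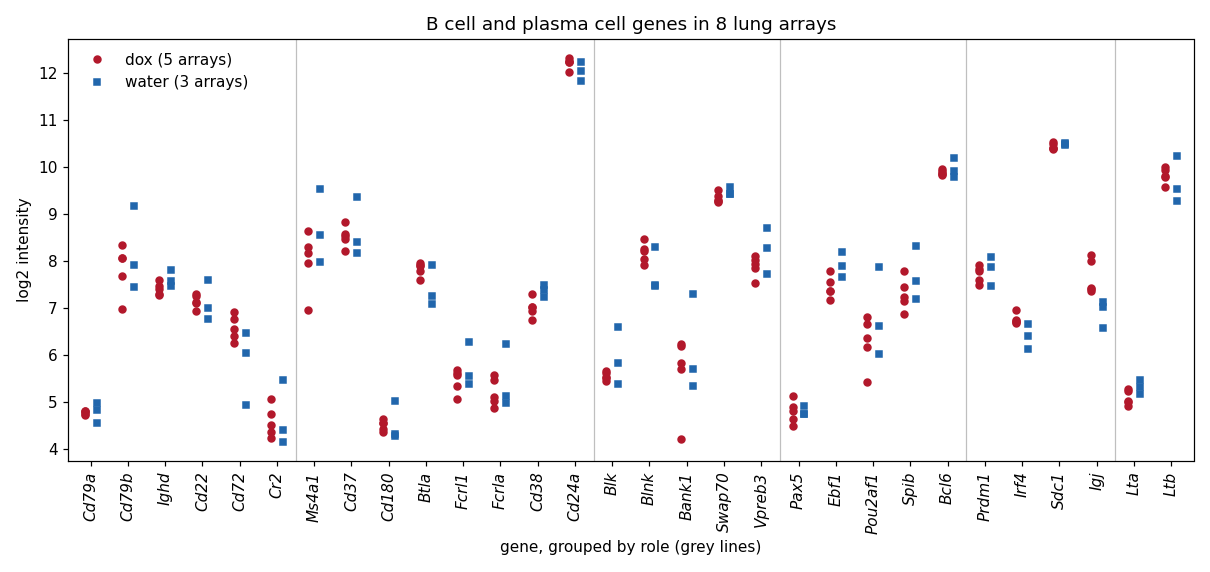
Log2 intensity (y axis) of the 30 members on the 5 dox arrays (red circles, left) and the 3 water arrays (blue squares, right), with grey lines between roles. Levels of different genes depend on their probes and are not comparable, and only Igj and Irf4 have all dox points above all water points.

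Btla, an inhibitory receptor of B and T cells, had intensities of 221, 236, 239, 246 and 193 on dox arrays against 242, 152 and 136 on water arrays. Only water 1 reached the dox values. Btla differed by 0.40 ± 0.16 (log2, SE, adjusted p = 0.218), and without water 1 it was 0.65 with an adjusted p of 0.00823. Without that array 3 members passed as higher, Btla, Blnk and Irf4, against 2.82% of all genes. Over all alternatives the difference of Btla ran from 0.24 to 0.65, and it passed in 1 of 16. Cd37, a tetraspanin of mature B cells, had 295 to 452 on dox arrays and 659, 337 and 289 on water arrays, and its log2 difference of -0.13 became 0.23 without water 1. The Fc receptor-like genes Fcrl1 and Fcrla overlapped between groups, at -0.28 ± 0.20 and -0.24 ± 0.26 (log2, SE), as did the Toll-like receptor homologue Cd180 at -0.03 ± 0.15. Without water 1 these differences were -0.01 in Fcrl1, 0.15 in Fcrla and 0.21 in Cd180.

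The remaining surface genes, like Btla above, are not confined to B cells. Cd38, an ectoenzyme that other leukocytes also carry, had intensities of 108, 122, 130, 158 and 130 on dox arrays against 167, 179 and 150 on water arrays. Its groups overlapped only through dox 4. Cd38 differed by -0.36 ± 0.11 (log2, SE, adjusted p = 0.104), and without dox 4 it was -0.43 with an adjusted p of 0.0303, the 1 member that then passed as lower (against 1.51% of all genes). Cd24a, a surface glycoprotein that epithelial cells and granulocytes share with immature B cells, had 4151 to 5093 on dox arrays and 3627 to 4796 on water arrays, with a log2 difference of 0.18 ± 0.10.

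Of the 5 genes that act inside the B cell, 3 were highest on water 1. Bank1, a scaffold of receptor signalling, had the widest range of the list, with intensities of 57.2, 52.1, 72.9, 75.4 and 18.5 on dox arrays against 156, 51.8 and 40.3 on water arrays. Water 1 was 8.44-fold above dox 5, and the other 6 arrays lay between 40.3 and 75.4. The log2 difference was -0.47 ± 0.50 (SE, adjusted p = 0.681) and changed sign to 0.12 without water 1. Blnk, the adaptor that links the receptor to calcium signalling, had 307, 264, 351, 297 and 242 on dox arrays against 315, 180 and 176 on water arrays. As with Btla, water 1 alone lay within the dox values. The log2 difference of Blnk was 0.43 ± 0.19 (SE, adjusted p = 0.244), and without water 1 it was 0.71 with an adjusted p of 0.0159. Over all alternatives it ran from 0.29 to 0.71, and it passed in 1 of 16.

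Blk, a Src-family kinase of B cells, had 43.8 to 50.4 on dox arrays and 95.8, 56.4 and 41.9 on water arrays. Its dox values lay close together, and its log2 difference of -0.38 ± 0.20 was -0.05 without water 1. Vpreb3, a protein that assists assembly of the receptor in precursors, departed from the common pattern, with 260, 186, 229, 244 and 275 on dox arrays against 309, 212 and 415 on water arrays. It was highest on water 3, and the groups overlapped (log2 difference -0.34 ± 0.19). Swap70, an actin-binding regulator also found in other leukocytes, had a log2 difference of -0.13 ± 0.08, and of -0.08 without water 1.

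All 5 transcription regulators of B cells had negative differences, and 4 of the 5 were highest on water 1. Ebf1, which specifies the B lineage and is also made in stromal and fat cells, had intensities of 164, 164, 219, 188 and 143 on dox arrays against 293, 236 and 202 on water arrays. Only dox 3 reached into the water range. The log2 difference was -0.47 ± 0.15 (SE, adjusted p = 0.103), its 4 probe sets ran from -0.47 to -0.38, and it was -0.33 without water 1. The 9 mesenchymal and adipocyte markers had a median of -0.24 with summed intensities of 9616 to 13730 on dox arrays and 11560 to 14180 on water arrays, and 1 of them, the fibroblast factor Tcf21, fell (-0.44 ± 0.11 SE, adjusted p = 0.0493, up to 0.165 without single arrays). Within the list, Col1a1 and Col1a2 had positive differences of 0.41 and 0.44. The other genes had negative ones, down to -1.84 for the fat cell gene Adipoq, and only Tcf21 passed. Of the 9, 3 fell without dox 4 and 0 without water 2, water 3 or any dox array but dox 4, and 1 rose without dox 1. The part of these cells in the Ebf1 values was not tested.

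Pou2af1, the co-activator of Oct proteins, had 82.1, 71.7, 113, 101 and 43.1 on dox arrays against 234, 98.0 and 64.6 on water arrays. Water 1 stood 5.43-fold above dox 5, and without water 1 the log2 difference of -0.55 ± 0.39 (SE, adjusted p = 0.512) was -0.03. Spib, an Ets factor of B cells and of plasmacytoid dendritic cells, had 117 to 221 on dox arrays and 319, 191 and 146 on water arrays. Its log2 difference of -0.40 ± 0.25 was -0.08 without water 1. The 7 plasmacytoid dendritic cell markers had 0 calls in limma and 0 under an unadjusted p of 0.05, against 18.7% of all genes. Their median was -0.15, with Siglech at the smallest p (-0.24, adjusted p = 0.32). Pax5, the factor that holds B cell identity, was dim (22.3 to 35.1 on dox arrays and 26.7 to 30.1 on water arrays, log2 difference -0.01 ± 0.13), and Bcl6, which drives the germinal centre reaction and is made in many cells, had -0.08 ± 0.09. Without water 1 both were just above zero, at 0.05 in Pax5 and 0.03 in Bcl6.

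Of the 4 plasma cell factors and products, 1 was highest on water 1, against 20.1% of all genes. Igj, the joining chain of polymeric IgA and IgM, had intensities of 255, 170, 278, 170 and 165 on dox arrays against 95.6, 129 and 140 on water arrays. Each dox array was above each water array, and water 1 was the lowest array. The mean was 1.68-fold higher in dox (log2 difference 0.75 ± 0.20 SE, 95% interval 0.32 to 1.19), which did not pass (adjusted p = 0.0563). Over the alternatives the difference ran from 0.59 to 0.93 with adjusted p from 0.0493 to 0.198, and it passed only with array medians subtracted, where it was the 1 member called higher (against 3.91% of all genes).

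Irf4, which B cells need to become plasma cells and which T cells and macrophages also make, had 106, 102, 124, 103 and 107 on dox arrays against 101, 84.4 and 69.6 on water arrays. The groups did not overlap, with the highest water value, that of water 1, just under the lowest dox value. The log2 difference was 0.36 ± 0.11 (SE, adjusted p = 0.104), and 0.50 with an adjusted p of 0.0294 without water 1. Over all alternatives it ran from 0.23 to 0.50, and it passed in 1 of 16. Prdm1, the repressor that completes the switch to the plasma cell, had 179 to 241 on dox arrays and 176 to 270 on water arrays (-0.08 ± 0.14, and 0.06 without water 1). Sdc1, a plasma cell surface proteoglycan that epithelium also makes, was the steadiest member: its 8 arrays lay within 1.11-fold of each other, and its log2 difference was -0.05 ± 0.06.

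The lymphotoxins, made by B and T cells to organise lymphoid tissue, were both highest on water 1. Lta had intensities of 37.5, 32.5, 32.1, 30.2 and 38.5 on dox arrays against 44.3, 35.8 and 40.0 on water arrays. The groups overlapped at low levels, with a log2 difference of -0.23 ± 0.10 (SE, adjusted p = 0.247). Ltb had 765 to 1028 on dox arrays and 1209, 741 and 619 on water arrays, and its log2 difference of 0.13 ± 0.18 turned to -0.07 without water 3 and was 0.41 without water 1.

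Immunoglobulin heavy chains outside the list were measured as well. Igh-6, which the RefSeq names give as an older symbol of Ighm, had 7 probe sets, of which the brightest had intensities of 563, 501, 767, 595 and 303 on dox arrays against 1144, 588 and 416 on water arrays. Like Ms4a1 it was highest on water 1 and lowest on dox 5, with a log2 difference of -0.32 ± 0.33 (SE, adjusted p = 0.665), and of 0.08 without water 1. Igha, the heavy chain of IgA, had 1122, 887, 1647, 977 and 962 on dox arrays against 549, 818 and 839 on water arrays. As with Igj, each dox array was above each water array and water 1 was the lowest. The log2 difference of Igha was 0.59 ± 0.20 (SE) and did not pass (adjusted p = 0.135), and it ran from 0.04, with the mean of its probe sets, to 0.71 over the alternatives. Igh-6 and Igha were singled out after their values were seen. Probe sets of immunoglobulin genes can bind transcripts of related genes, so the identity of the transcript is uncertain.

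Of 47 immunoglobulin genes outside the list, 1 rose and 0 fell, against 3.48% and 1.52% of all genes. Their median log2 difference was -0.09. The gene that rose was the light chain segment Igkv5-43 (0.43 ± 0.09 SE, adjusted p = 0.0217, lost with the mean of its probe sets and, among fits without 1 array, without dox 2, water 2 or water 3). Of the 47 genes, 24 were highest on water 1 and 16 lowest on dox 5, against 20.1% and 13.6% of all genes.

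Of 17 further B lineage genes, 1 rose and 0 fell, against 3.48% and 1.52% of all genes, with a median log2 difference of -0.10. Of the 17, 15 were highest on water 1 and 8 lowest on dox 5, against 20.1% and 13.6% of all genes. Tnfrsf13c, the receptor for BAFF on B cells, had intensities of 61.2, 53.5, 83.3, 58.4 and 30.8 on dox arrays against 138, 69.3 and 48.0 on water arrays, and like Ms4a1 it was highest on water 1 and lowest on dox 5 (log2 difference -0.49, adjusted p = 0.5, and -0.08 without water 1).

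The gene that rose was Fcer2a, the low-affinity IgE receptor of B cells and some myeloid cells, with 160, 150, 153, 130 and 219 on dox arrays against 126, 62.9 and 35.7 on water arrays. Unlike Tnfrsf13c it was highest on dox 5 and lowest on water 3. Its log2 difference was 1.29 ± 0.32 (SE, adjusted p = 0.0469). The call was lost without any one array other than water 1 (adjusted p up to 0.128) as well as with a trend and robust prior (0.128) and with every probe set on its own (0.0558), and the difference was 0.85 without water 3. Without water 1, 2 of the 17 genes rose, against 2.82% of all genes. Of the 9 B cell precursor genes 0 passed in limma and 4 had an unadjusted p under 0.05, against 18.7% of all genes, with a median of 0.00. The list runs from dim genes such as Rag1 (8.04 to 10.6 on dox arrays) to the bright Cd93 (3739 to 4355 on dox arrays). The smallest p was that of Erg (-0.35, adjusted p = 0.0508), an Ets factor that endothelial cells also make, and 1 gene of the list fell without dox 4, 2 with a trend and robust prior, and 1 each with repeated quantile normalization or the dimmest 25% of genes removed.

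T cell genes were also high on water 1. Of 15 T cell markers, 12 had their highest value there and 3 their lowest on dox 5, against 20.1% and 13.6% of all genes. Their summed intensity ran from 2650 to 3345 on dox arrays and from 2430 to 3679 on water arrays. In limma 0 of these markers passed, and 2 were under an unadjusted p of 0.05, against 18.7% of all genes. Their median was -0.02. The defining marker Cd3e had 341, 280, 319, 342 and 298 on dox arrays against 387, 264 and 305 on water arrays. Its water values spanned less than those of Ms4a1. The T cell marker with the smallest p was Cd2 (0.32, adjusted p = 0.233), which passed without water 1 (adjusted p = 0.048). The part of T cells in the values of the B cell genes was not tested.

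Among 15 further genes of plasma cells and of the secretory machinery, 6 rose and 0 fell, with a median log2 difference of 0.28. The largest rise was that of Creld2, a chaperone of the endoplasmic reticulum (0.63 ± 0.11 SE, adjusted p = 0.00785). Xbp1, the factor that expands this compartment, rose, with 3594, 4038, 3709, 3911 and 3997 on dox arrays against 2542, 3211 and 2948 on water arrays (0.41 ± 0.08 SE, adjusted p = 0.0177), a call lost, among fits without 1 array, without water 1 (0.0586). Epithelial and myeloid cells use this machinery too. Slamf7, a surface receptor of plasma cells and other leukocytes, also rose (0.44, adjusted p = 0.0284). Among those that did not pass, Tnfrsf17, the receptor BCMA, was dim, at 16.4 to 23.2 on dox arrays and 18.5 to 20.4 on water arrays. Mzb1, a chaperone of antibody-secreting cells, had a log2 difference of -0.30 ± 0.20 and was highest on water 1. Derl3 and Fkbp11, which act in the endoplasmic reticulum, had positive differences of 0.23 and 0.28. With single arrays left out, the count of rises was lowest at 2 without water 1 and 3 without water 3, and Slamf7 lost its call without dox 2, dox 3, water 2 or water 3.

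Of 14 genes listed as survival and homing signals for B cells, 7 rose and 0 fell, with a median log2 difference of 0.38. The list also holds genes that are not themselves signals to B cells, such as Pigr. The largest rise was that of Pigr, the epithelial transporter of polymeric IgA, with 1883, 1578, 2052, 1779 and 2641 on dox arrays against 244, 283 and 382 on water arrays. The groups lay far apart, at a 6.57-fold higher mean in dox (log2 difference 2.72 ± 0.17 SE, adjusted p = 1.23e-05). Cxcl13, the chemokine that draws B cells into follicles, rose, with 238, 224, 253, 161 and 203 on dox arrays against 62.6, 61.5 and 50.4 on water arrays (1.88 ± 0.14 SE, adjusted p = 3.59e-05). Tnfsf13b, which encodes BAFF, rose by 0.83 ± 0.09 SE (adjusted p = 0.000321), with 846 to 1022 on dox arrays and 464 to 573 on water arrays. These 3 rises, chosen from the 7 after their values were seen apart from Pigr, passed under each alternative, whereas the count of rises in the list was 4 without water 1 or water 3. Il6, also among the 7, lost its call without any 1 of the water arrays, and Vcam1 without water 1 or water 3.

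**Figure D4:**
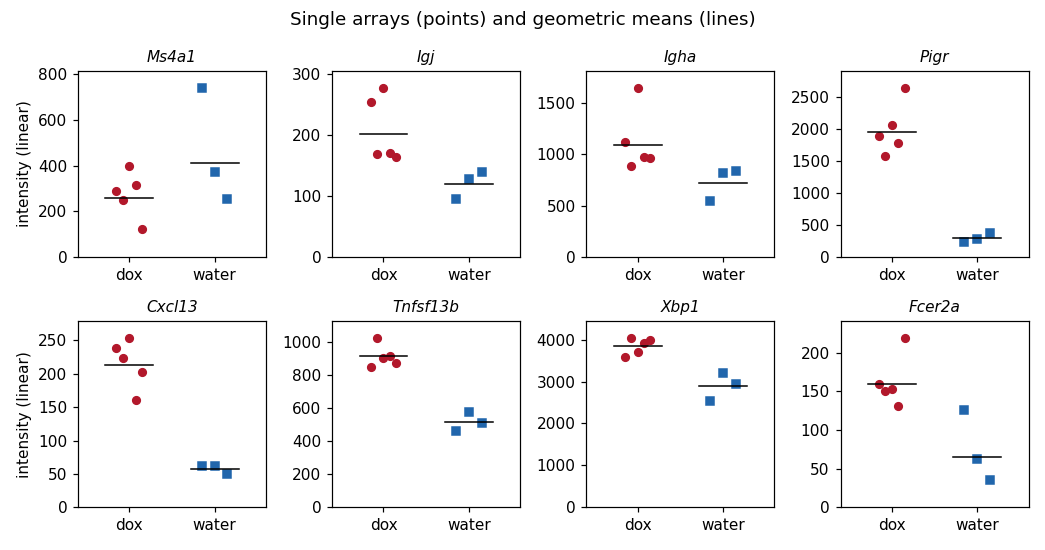
Intensity (y axis, linear scale from 0) on the dox arrays (red circles, left) and water arrays (blue squares, right), with lines at the geometric means, for 2 members (Ms4a1 and Igj) and 6 other genes. The groups are far apart for Pigr and Cxcl13, and overlap for Ms4a1, where water 1 is at 740 and dox 5 at 124.

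Of 10 genes listed for the lymphotoxin pathway, among them the ligands Tnf and Tnfsf14, 6 rose and 0 fell (median 0.37). The count was 5 without water 2 and 4 without water 3. The largest rise was that of Nfkb2, a subunit of non-canonical NF-kB (0.66 ± 0.09 SE, adjusted p = 0.00155). Its partner Relb rose by 0.64. The lymphotoxin receptor Ltbr itself had a log2 difference of 0.00 ± 0.07. Of 17 genes of B cell receptor signalling outside the list, 6 rose and 0 fell (median 0.32), the most for the exchange factor Vav1 (0.73 ± 0.11 SE, adjusted p = 0.00265), and the count was 2 without water 3, 3 without dox 2, dox 5 or water 2, and 9 without water 1. Several of these genes, such as Vav1 and the kinase Syk, also work in myeloid cells. The 12 macrophage markers summed to 32730 to 36850 on dox arrays and 26480 to 27450 on water arrays. Most of each sum was Lyz2, at 19892 to 21073 on dox arrays and 18588 to 19164 on water arrays. Lyz2 did not pass (log2 difference 0.12, limma adjusted p = 0.297). The part of macrophages in these rises was not tested. Of 16 germinal centre and B cell help genes, 3 rose and 0 fell (median 0.05), the most for the costimulatory ligand Cd86 (0.96 ± 0.09 SE, adjusted p = 0.000167), with 1 left without dox 5, water 2 or water 3. Of 9 dendritic cell markers 3 rose (median 0.31), the most for Cd83 (1.39). Of 12 epithelial markers 1 rose (median 0.10), against 3.48% of all genes, and this was Muc1 (0.36, lost without water 1 or water 2).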

How the data were processed

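Biotin-labelled cRNA from whole-lung total RNA was hybridised to 1-colour arrays, per the labels' protocols. Each deposited value is a linear intensity of 1 probe set on 1 array. The values were made by the authors with RMA (version not given in the sources used here), as the submitters' processing notes say. This method makes the arrays' distributions alike, so a change of total RNA cannot be seen. The number of arrays limits the precision.

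Gene symbols came from the authors' deposited annotation table, whose other 8 value columns match no sample label and were not used. They were updated with RefSeq names of GRCm38.p6: 17194 probe sets by accession, 13422 by current symbol, 38 as members under the table's own symbol and 1889 by an older symbol, while 4451 kept the array's symbol and 6687 had none. The brightest probe set by mean over 8 arrays was used for each of 27201 genes.

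Log2 intensities of 5 dox and 3 water arrays were compared with limma (version 3.58.1, R 4.3.3, lmFit then eBayes, 2-sided). P-values were adjusted by Benjamini-Hochberg over the 27201 genes, with 0.05 as the threshold. The computation was tested on simulated data. Differences are dox minus water on the log2 scale with limma's standard error. "Rose" and "fell" mean past the threshold. Figures used numpy 2.4.6 and matplotlib 3.10.9.

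The members, the 15 other gene lists and the tests were chosen with earlier results of these data known. All members are named. Of each other list, the largest rise and the largest fall past the threshold are named, or, where none passed, the gene with the smallest p. The other named genes were chosen after their values were seen. Single values of some list genes are not reported here. Promoter windows of 300 bases came from a RefSeq table of GRCm38.p6, for the reference strain and not BALB/c.

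The alternatives changed the prior (trend and robust), the weights of arrays, the normalization (quantile again, or medians subtracted), the genes kept (without the dimmest 25%) and the choice of probe sets (their mean, or each by itself). Others added the replicate number as a block or left out 1 array at a time.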

Additional observations from a re-analysis of the deposited data

Results flagged for a closer look

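Dixon's criterion was applied to the dox arrays of 75 genes, the 30 members among them. In 3 of the 75 genes, all of them members, 1 dox array stood apart from the other dox arrays. The criterion picks out about 1 in 20 groups by chance alone. Gaps and ranges were taken on the log2 scale, while the levels given are linear intensities. Cd24a was lowest on dox 1, at 4151, and the gap to the next dox array was 0.742 of the range of the group. Bank1 was lowest on dox 5, at 18.5, with a gap of 0.737 of the range. Irf4 was highest on dox 3, at 124, with a gap of 0.745 of the range. The water group, with 3 arrays, is too small for this criterion, so the position of water 1 was not tested by it.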

How the results depend on the processing

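Over the alternatives, the number of B cell and plasma cell genes called higher was 0 except for 1 with array medians subtracted (Igj) and 3 without water 1 (Blnk, Btla and Irf4). The number called lower was 0 except for 1 without dox 4 (Cd38). Leaving out single arrays thus gave 0 to 3 genes higher and 0 to 1 lower. With the replicate block 0 members passed in either direction, and 606 genes passed over all against 1359. Of the other lists, that fit called 0 further plasma cell genes and 0 further B lineage genes. It called 2 genes each of receptor signalling, of the lymphotoxin pathway and of the neutrophil markers. The calls of Creld2 (adjusted p = 0.0531), Xbp1 (0.0917), Slamf7 (0.179), Fcer2a (0.103), Igkv5-43 (0.162), Tcf21 (0.0531) and Muc1 (0.126) were lost in it. Same-numbered dox and water arrays shared only a number: their deviations from the group means correlated at 0.0072, 0.0619 and -0.161. Of the members' values under alternatives, 448 kept their sign and side of the threshold, 5 newly passed and 27 changed sign, each of these a difference that had not passed. Where leaving out 1 array changed the sign, the log2 differences over the 8 such fits ran from -0.8559 to 0.1215 in Bank1, -0.1702 to 0.0274 in Bcl6, -0.1569 to 0.2093 in Cd180, -0.1594 to 0.2577 in Cd22, -0.3632 to 0.2332 in Cd37, -0.1266 to 0.0832 in Cd79a, -0.7133 to 0.1396 in Cd79b, -0.3608 to 0.2972 in Cr2, -0.4782 to 0.1534 in Fcrla, -0.0703 to 0.4127 in Ltb, -0.0964 to 0.0679 in Pax5 and -0.2528 to 0.057 in Prdm1, and outside the members from -0.1268 to 0.1488 in Cd3e and -0.6506 to 0.0793 in Igh-6. Other settings changed the sign of differences near zero. Cd79a had 0.0144 with array weights, 0.0121 with repeated quantile normalization and 0.0112 with medians subtracted, and Pax5 had 0.0151 and 0.0136 with these last settings. Cd22 had -0.0032 with quantile normalization and Cd180 0.008 with array weights. Outside the members, Cd3e had 0.0415 with array weights and 0.0228 with medians subtracted, and Tnfrsf17 had 0.0033 with the replicate block. The cause of these changes was not tested. Cd79a, Cr2, Cd180, Fcrla, Pax5 and Lta had means under the lowest array median, where signal over background is weakest, and none was under the lower quartile of an array.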
